A study of Mus musculus with 4 samples.

Results

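The report covers 7 genes that move water, potassium, bicarbonate and sodium across glial membranes, or anchor that machinery, read in sorted cells of the adult mouse dentate gyrus. They are Aqp4, Kcnj10, Mlc1, Hepacam, Slc4a4, Atp1b1 and Atp1b2. They were taken by name from the 31557 gene symbols of the count table, and all 7 were found. The counts come from Smart-seq2, a method that copies polyadenylated RNA of a single cell along the whole transcript.

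The cells were sorted for green fluorescence from both dentate gyri of 8 male nestin-GFP mice, in which GFP reports nestin, an intermediate filament of neural stem cells that some vascular and glial cells also make. In 4 mice (mice 2, 4, 6 and 8) the antagomir Ant-132, a cholesterol-modified oligonucleotide with locked nucleic acids directed at miR-132, was given into a cerebral ventricle at 2 months of age; the mice received 2 µl of it, dissolved in artificial cerebrospinal fluid to a concentration of 0.33 nmol/ml. The other 4 mice (mice 1, 3, 5 and 7) received a scrambled locked nucleic acid oligonucleotide in the same fluid, at a dose not given in the sources used here. All were nestin-GFP reporters, and analysis was at 3 months. Mature miR-132 was not measured.

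Each mouse gave 96 wells. Of the 768, the 716 in which 500 to 6000 genes were detected entered the analysis, 353 of them of antagomir and 363 of scrambled mice. Kept wells held 4118 to 1640971 counts (median 650777), which summed to between 43996495 and 69191485 counts per mouse. Clustering was run without the 7 genes and without 57 further pathway genes, and clusters were named from cell type markers. It gave 168 cells with markers shared by astrocytes and radial glia-like stem cells (RGL), called astroglia-like here, 303 oligodendrocyte-like, 87 endothelial-like, 82 mural-like, 25 neuroblast-like and 12 fibroblast-like cells, and 1 unnamed cluster of 39 cells. All 18 markers of RGL or astrocytes were found in at least 25% of the astroglia-like cells. In the unnamed cluster 15 of these 18 were, but its 10 leading genes, among them Frzb, Tfap2c, Tnc and Eomes, held 1 marker of another class and 0 of this one, so it was given no name. At a finer clustering 5 of its 39 cells joined oligodendrocyte precursor-like cells. At a coarser one no cluster was left unnamed, and the neuroblast-like cluster held 64 cells. Among wells with at least 1000 detected genes, a cluster of 39 cells led by Frzb and Tfap2c was named RGL or astrocyte. How such cells were named thus depended on the setting. Markers of oligodendrocyte precursors summed to 0 to 7092 CPM in the unnamed cluster of antagomir mice and 0 to 2901 CPM in that of scrambled mice. The classes were formed from other genes of the same cells, so p-values between classes are a description. They are not calibrated as for groups fixed beforehand, and their size is no measure of distance.

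Astrocytes wrap blood vessels and synapses with fine processes. Aquaporin-4 lets water through the end-foot membrane, Kir4.1 takes up potassium released by active neurons, and the sodium pump supplies the gradients on which both this uptake and bicarbonate import depend. MLC1 and its adhesion partner GlialCAM sit at astrocyte junctions, and loss of either in people causes a leukodystrophy with swollen white matter. In the hippocampus, radial glia-like stem cells share much of this set of proteins with astrocytes.

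The genes lie apart in the genome (GRCm38, GENCODE M21). Kcnj10 spans chr1:172341210-172374085 on the plus strand and Atp1b1 chr1:164437109-164458355 on the minus strand. Hepacam lies at chr9:37367351-37386575 and Slc4a4 at chr5:88886818-89239653, both on the plus strand. Mlc1 lies at chr15:88955884-88979007 and Atp1b2 at chr11:69599736-69605942, both on the minus strand.

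The microRNA that the antagomir targets and the single place where it could pair through its full seed with one of the 7 transcripts are shown first. In the mature microRNA (RefSeq, GRCm38.p6, chr11:75173723-75173744, plus strand) capitals mark the seed, bases 2 to 8. In the Hepacam 3' UTR (GENCODE M21, GRCm38, chromosome 9, plus strand) capitals mark the 8-base match GACTGTTA, at bases 37385628 to 37385635.
mmu-miR-132-3p: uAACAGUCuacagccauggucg
Hepacam 3' UTR site: tcttcttcctGACTGTTAttttacaaaa
The search covered the longest annotated 3' UTR of each gene. Those of the other 6 genes held neither of the 7-base matches GACTGTT and ACTGTTA. Of 21022 genes with an annotated 3' UTR, 495 (2.36%) held the 8-base match, and so did 69 of 2870 genes (2.40%) whose 3' UTR was within 20% of the Hepacam length of 1764 bases. A match of letters is a description and does not show that the site is used.

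The promoters of 3 genes are shown because their transcripts divided the glial classes in different ways, as given below: Kcnj10 and Hepacam were found in both astroglia-like and oligodendrocyte-like cells, and Mlc1 in the first of these classes. Each runs from 250 bases before to 50 after the start of transcription, 5′ to 3′ on the gene's strand (RefSeq, GRCm38.p6): chr1:172340960-172341259 for Kcnj10 (plus), chr9:37367356-37367655 for Hepacam (plus) and chr15:88978504-88978803 for Mlc1 (minus). By the GENCODE spans given above, the Hepacam and Mlc1 windows lie inside the gene, past its outermost annotated start. That of Kcnj10 begins before the gene. Capitals mark the half-site TTGGCA of NFI, a family of transcription factors of glial differentiation, searched on both strands.
Kcnj10: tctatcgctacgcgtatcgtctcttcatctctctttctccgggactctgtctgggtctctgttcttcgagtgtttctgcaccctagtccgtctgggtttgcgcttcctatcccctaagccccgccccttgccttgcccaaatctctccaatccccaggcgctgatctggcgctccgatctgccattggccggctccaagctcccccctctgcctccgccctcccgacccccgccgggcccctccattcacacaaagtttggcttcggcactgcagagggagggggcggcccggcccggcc
Hepacam: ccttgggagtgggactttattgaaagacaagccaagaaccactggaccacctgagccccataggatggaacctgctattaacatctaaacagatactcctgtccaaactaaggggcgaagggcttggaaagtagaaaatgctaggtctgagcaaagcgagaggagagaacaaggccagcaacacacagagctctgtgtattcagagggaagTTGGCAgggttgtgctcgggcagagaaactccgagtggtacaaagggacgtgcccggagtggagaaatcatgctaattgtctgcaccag
Mlc1: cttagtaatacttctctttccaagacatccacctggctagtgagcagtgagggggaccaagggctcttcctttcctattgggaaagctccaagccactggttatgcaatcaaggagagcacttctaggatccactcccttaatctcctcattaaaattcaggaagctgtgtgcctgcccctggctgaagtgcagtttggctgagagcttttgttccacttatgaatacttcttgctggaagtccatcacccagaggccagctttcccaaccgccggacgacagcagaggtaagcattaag
GC content was 63.7% with 21 CpG pairs in the Kcnj10 window, 50.7% with 6 in the Hepacam window and 49.7% with 3 in the Mlc1 window. TTGGCA was found in the Hepacam window and in 14.1% of 32851 promoter windows. AACAAT, a core letter string of SOX factor sites, was in none of these 3 windows and in 10.7% of all windows. The strings can overlap, since TGCCAA, the reverse complement of TTGGCA, ends in the letters with which AACAAT begins.

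The 7 genes fell into 3 patterns over the classes. Aqp4, Slc4a4, Mlc1 and Atp1b1 had their counts mainly in astroglia-like cells and, for Mlc1, in the unnamed cluster. Of the cells of the unnamed cluster, 41.0% also held Atp1b1, 35.9% Aqp4 and 20.5% Slc4a4, and 12.2% of mural-like cells held Atp1b1. Kcnj10 and Hepacam were found in astroglia-like, unnamed and oligodendrocyte-like cells. Atp1b2 was found in most astroglia-like, unnamed, mural-like and fibroblast-like cells. It was also found in 11 of 25 neuroblast-like cells, 15.5% of oligodendrocyte-like and 14.9% of endothelial-like cells. In the joint edgeR quasi-likelihood fit of sums per mouse and class, with the mouse as a block, 5 of the 7 genes were higher in astroglia-like than in oligodendrocyte-like cells at a Benjamini-Hochberg adjusted p under 0.05, and 0 were lower. Of 12993 genes tested, 16.9% passed and 9.71% passed as higher. The median fitted log2 difference was 7.20 over the 7 genes and -0.20 over all genes. A fitted difference is an estimate of the model and is not the log2 of a ratio of mean CPM, so the values given side by side below can differ.

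**Figure D1:**
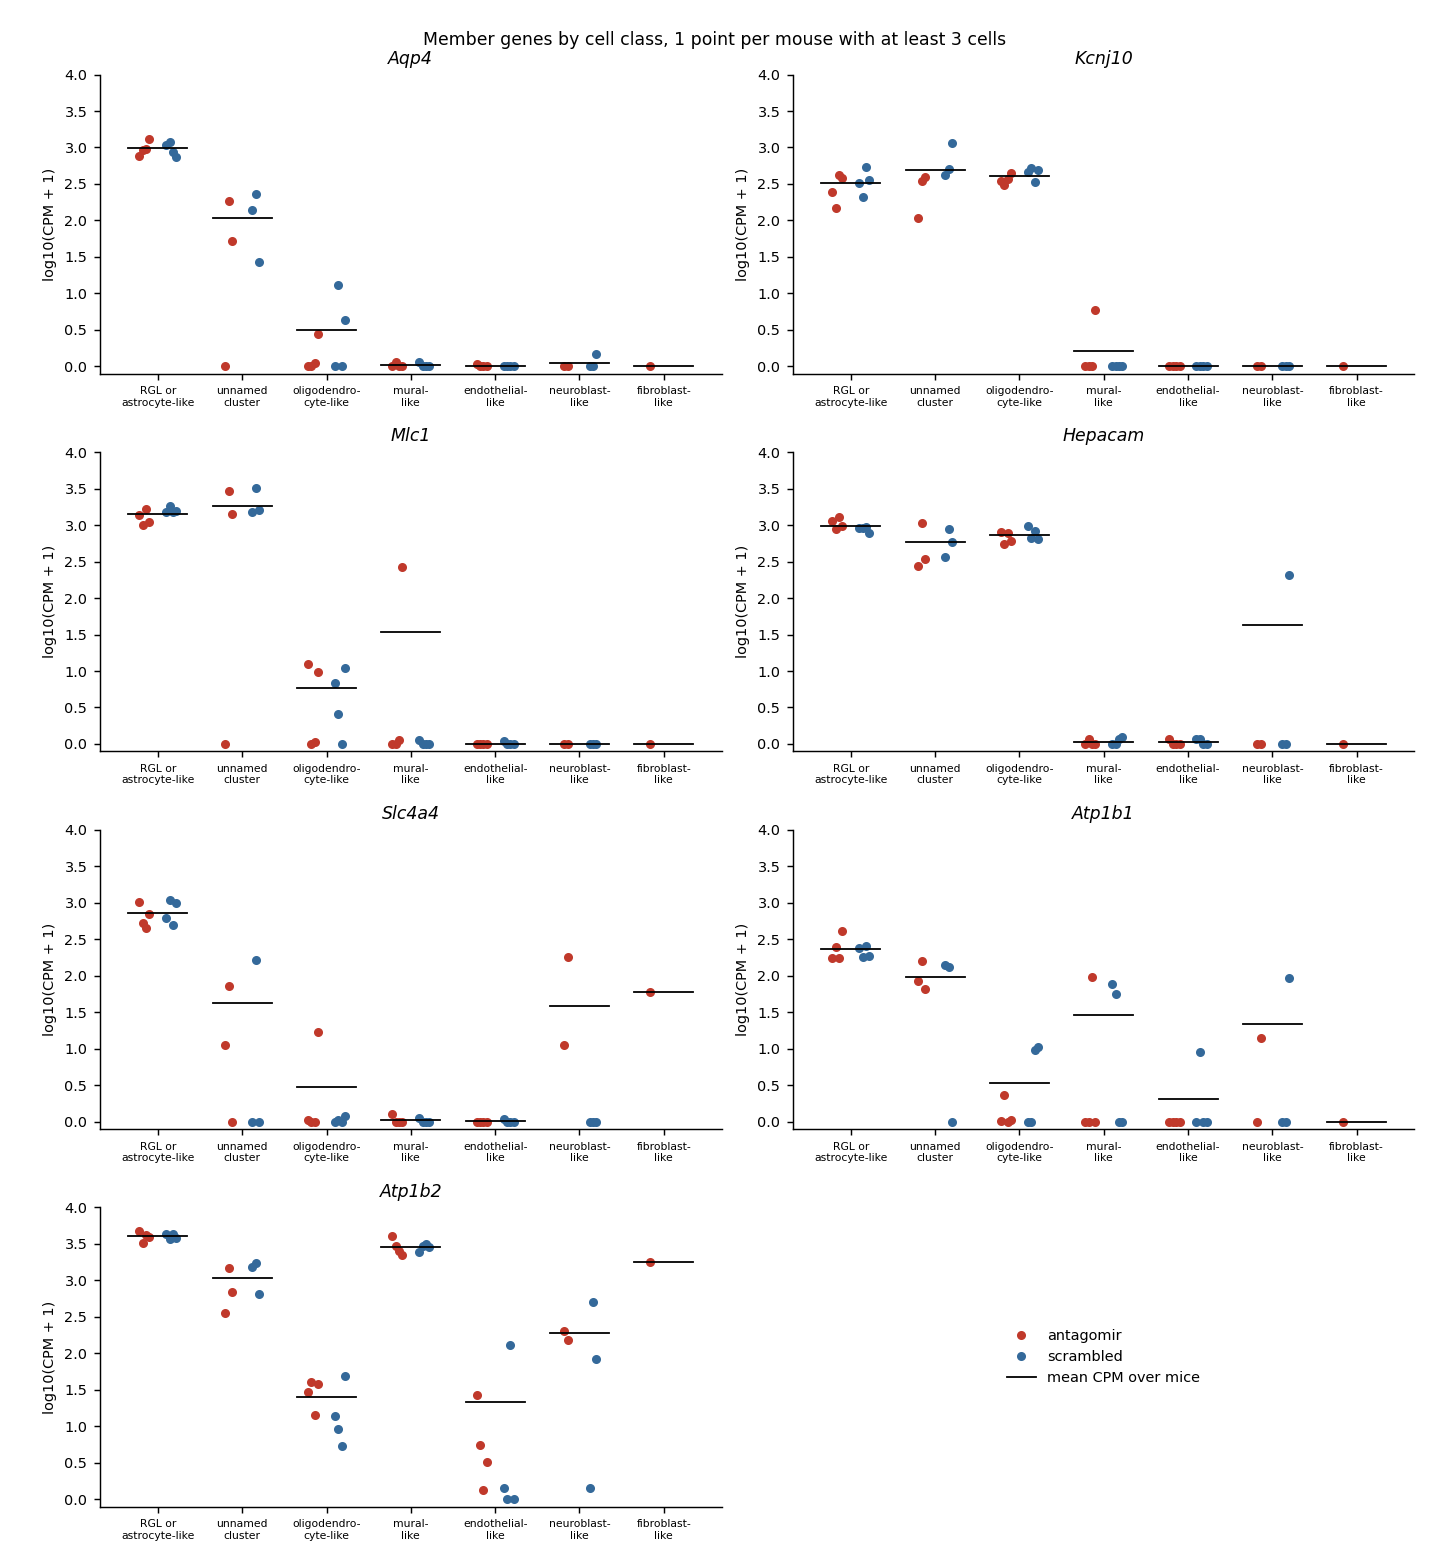
Level of each gene as log10(CPM + 1), CPM being the gene's share of the summed counts of a mouse and class, as counts per 1e+06, in each mouse with at least 3 cells of the class. Points are mice (red antagomir, blue scrambled) and lines the mean CPM over mice; astroglia-like cells are labelled RGL or astrocyte-like on the axis, and the Kcnj10 and Hepacam panels show oligodendrocyte-like cells at levels near those of astroglia-like cells.

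**Figure D2:**
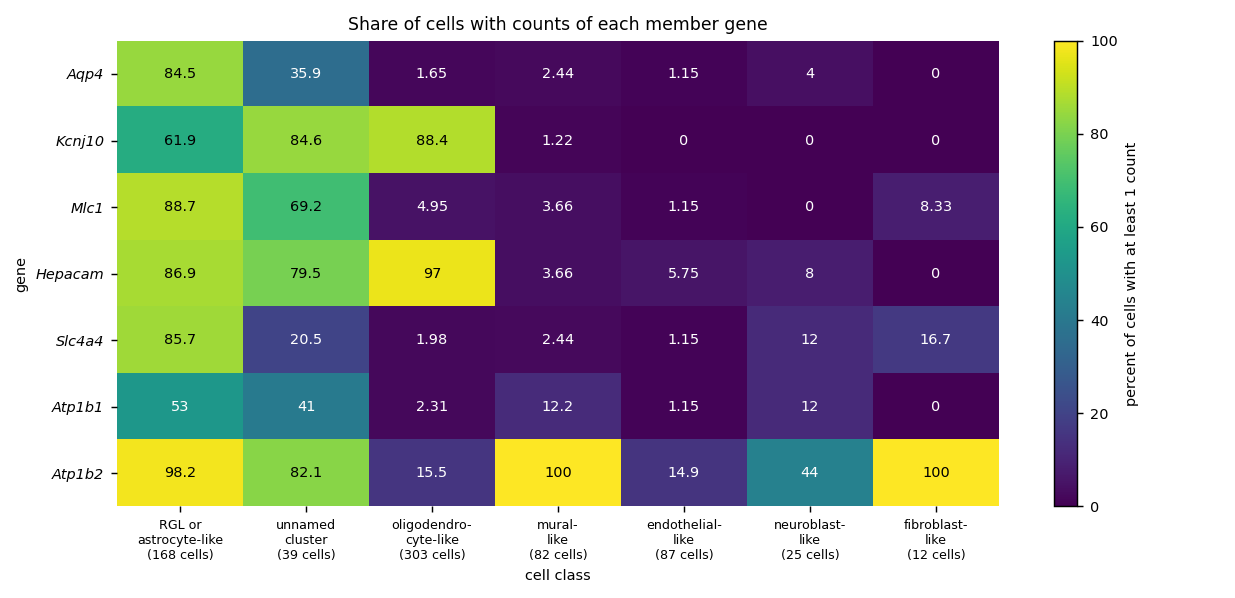
Percent of the cells of each class (columns) with at least 1 count of each gene (rows), coloured from 0 to 100 percent. Atp1b2 was found in 98.2% of astroglia-like and 100% of mural-like cells, and Hepacam in 86.9% of astroglia-like and 97.0% of oligodendrocyte-like cells.

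Aqp4, the main water channel of the brain, averaged 977 ± 201 CPM in astroglia-like cells (SD, n = 8 mice), with a lowest mouse of 742, a median of 936 and a highest of 1295 CPM. The unnamed cluster averaged 105 ± 93.7 CPM (n = 6 mice with at least 3 cells) and ran from 0 to 232 CPM, and oligodendrocyte-like cells averaged 2.12 ± 4.10 CPM (n = 8). The ranges of astroglia-like cells and of either other class did not overlap. Mural-like cells held 2 counts of Aqp4 in all and endothelial-like cells 1. The mean CPM in astroglia-like cells was 460 times that in oligodendrocyte-like cells, higher in 8 of 8 mice (fitted log2 difference 10.27 ± 1.603 SE, adjusted p = 1.63e-05, edgeR). Counts of Aqp4 were found in 84.5% of astroglia-like cells (78.3 to 89.2%, a 95% interval by Wilson's method); oligodendrocyte-like cells with such counts made up 1.65% (0.707 to 3.80%). Of the 657 counts in oligodendrocyte-like cells, 313 came from 1 cell.

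Kcnj10 encodes Kir4.1, the inward rectifier through which glia take up potassium. It averaged 328 ± 128 CPM in astroglia-like cells, where mice ran from 146 through a median of 344 to 547 CPM. The unnamed cluster averaged 486 ± 348 CPM (106 to 1139, n = 6), and oligodendrocyte-like cells 411 ± 82.6 CPM (308 to 530, median 407, n = 8). These 3 ranges overlapped. None of the 3 differences passed the test: astroglia-like against oligodendrocyte-like cells gave a fitted log2 difference of -0.58 (95% interval -2.0 to 0.83, adjusted p = 0.740, edgeR), with a higher CPM in astroglia-like cells of 2 of 8 mice. The adjusted p was 0.992 for astroglia-like cells against the unnamed cluster and 0.878 for the unnamed cluster against oligodendrocyte-like cells (edgeR). These intervals do not show that the levels are alike.

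Kcnj10 was found in 61.9% of astroglia-like cells (54.4 to 68.9%) at a median of 5.27e+05 counts per cell and in 88.4% of oligodendrocyte-like cells (84.4 to 91.6%) at 8.30e+05. With every cell thinned to 200000 counts, leaving out 20 and 5 shallower cells, the shares were 61.5% of astroglia-like and 88.3% of oligodendrocyte-like cells. In mural-like cells 1 of 82 held Kcnj10, with 11 counts. Endothelial-like cells held it in 0 of 87 cells, which allows a share of up to 3.45% by a limit of 3 cells (4.23% by Wilson's method). Neuroblast-like cells held it in 0 of 25, which allows 12% by the first limit and 13.3% by the second. Against a floor of 3 counts over the endothelial-like class, the level was at least 4920-fold higher in astroglia-like and at least 6930-fold higher in oligodendrocyte-like cells. The difference between oligodendrocyte-like and mural-like cells passed as well (fitted log2 12.79 ± 1.17 SE, adjusted p = 5.18e-09, edgeR, with 24.1% of genes passing). The 18 markers of RGL or astrocytes summed to 352 to 854 CPM in oligodendrocyte-like cells of antagomir mice and 494 to 693 CPM in those of scrambled mice. In astroglia-like cells they summed to 4.80e+04 to 6.01e+04 CPM. Their part in the Kcnj10 level of oligodendrocyte-like cells was not tested.

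Mlc1 encodes a membrane protein of astrocyte junctions that takes part in ion and water balance. It averaged 1440 ± 274 CPM in astroglia-like cells (992 to 1807, median 1517), against 4.76 ± 4.96 CPM in oligodendrocyte-like cells (0 to 11.6, median 3.70; n = 8 mice each). The ranges did not overlap, and the mean was 302 times as high (fitted log2 difference 8.97 ± 1.70 SE, adjusted p = 0.000226, edgeR). The unnamed cluster averaged 1802 ± 1177 CPM, with mice from 0 to 3238 CPM. Its value in mouse 2 was 0 over 8 cells, while the other 5 mice lay between 1436 and 3238 CPM. The unnamed cluster differed from oligodendrocyte-like cells (fitted log2 9.19 ± 1.84 SE, adjusted p = 0.000825, edgeR, with 11.5% of genes passing) and did not pass against astroglia-like cells (adjusted p = 0.997). In mural-like cells 599 of 601 Mlc1 counts came from 1 cell of mouse 8.

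Hepacam encodes GlialCAM, the adhesion protein that brings MLC1 to cell junctions. Astroglia-like cells averaged 984 ± 167 CPM (782 to 1308, median 933) and oligodendrocyte-like cells 731 ± 139 CPM (558 to 979, median 728; n = 8 each). The ranges overlapped. Astroglia-like cells were higher in 7 of 8 mice, and the difference did not pass (fitted log2 0.28, 95% interval -0.78 to 1.33, adjusted p = 0.866, edgeR). The unnamed cluster averaged 583 ± 319 CPM (273 to 1058). Mural-like cells held 3 counts and endothelial-like cells 5. Oligodendrocyte-like cells stood above mural-like cells (fitted log2 13.78 ± 0.90 SE, adjusted p = 1.67e-13) and above endothelial-like cells (13.35 ± 0.88 SE, adjusted p = 1.97e-13, with 27.1% of genes passing, edgeR). Counts of both Mlc1 and Hepacam were found in 135 of 168 astroglia-like cells, and in 14 of 303 oligodendrocyte-like cells. Another 280 oligodendrocyte-like cells held Hepacam without Mlc1. Oligodendrocyte-like cells with both Kcnj10 and Hepacam numbered 261 of 303.

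Slc4a4 encodes the sodium bicarbonate cotransporter NBCe1, which couples acid handling to the sodium gradient. It averaged 734 ± 255 CPM in astroglia-like cells (451 to 1078, median 655) and 40.7 ± 65.9 CPM in the unnamed cluster (0 to 163). Oligodendrocyte-like cells averaged 2.02 ± 5.58 CPM, and 589 of their 601 counts lay in 1 cell of mouse 8. Astroglia-like cells stood above both without overlap. The mean was 364 times that of oligodendrocyte-like cells (fitted log2 difference 12.52 ± 1.92 SE, adjusted p = 1.24e-05, edgeR), and higher in 8 of 8 mice. This fold rests on a class mean made up almost wholly of that 1 cell's counts. Few counts lay outside that cell, so the fitted difference is no bound. Cells with counts made up 85.7% of astroglia-like cells, 20.5% of the unnamed cluster and 1.98% of oligodendrocyte-like cells.

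The sodium pump is a dimer of a catalytic alpha and a glycoprotein beta subunit, and Atp1b1 and Atp1b2 encode 2 of the betas. Atp1b2, also named adhesion molecule on glia, was the most abundant of the 7 genes per length. It averaged 4054 ± 479 CPM in astroglia-like cells (3245 to 4766, median 4083) and 2901 ± 550 CPM in mural-like cells (2265 to 4045, median 2905). These ranges overlapped, yet astroglia-like cells were higher in 8 of 8 mice. The difference did not pass (fitted log2 0.95, 95% interval -0.70 to 2.60, adjusted p = 0.490, edgeR). Against mural-like cells 5 of the 7 genes were higher, where 20.7% of genes passed and 15.7% passed as higher, and the exceptions were Atp1b1 and Atp1b2. The 12 fibroblast-like cells all held Atp1b2, and the single mouse with 3 of them had 1773 CPM.

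Oligodendrocyte-like cells averaged 24.01 ± 16.4 CPM of Atp1b2 (4.31 to 47.8) and endothelial-like cells 20.6 ± 45.5 CPM (0 to 131). Astroglia-like cells exceeded oligodendrocyte-like cells 169-fold in mean CPM (fitted log2 7.20 ± 1.06 SE, adjusted p = 6.75e-06, edgeR). Mural-like cells exceeded oligodendrocyte-like cells too: the fitted log2 difference of oligodendrocyte-like minus mural-like cells was -6.25 ± 1.02 SE (adjusted p = 1.94e-05). The difference of mural-like minus endothelial-like cells was 8.69 ± 1.203 SE (adjusted p = 3.75e-06, edgeR, with 10.8% of genes passing). Neuroblast-like cells averaged 190 ± 195 CPM in the 5 mice with at least 3 cells, from 0.409 to 512 CPM.

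Atp1b1, the beta subunit that many tissues use, averaged 233 ± 79.3 CPM in astroglia-like cells (172 to 409, median 214). The unnamed cluster averaged 96.1 ± 59.1 CPM (0 to 158) and mural-like cells 28.3 ± 40.5 CPM, with 5 of 8 mural-like sums at 0. Oligodendrocyte-like cells averaged 2.41 ± 4.07 CPM and endothelial-like cells 1.01 ± 2.87 CPM. Astroglia-like cells lay above every one of these ranges. The difference from oligodendrocyte-like cells passed (fitted log2 7.04 ± 2.20 SE, adjusted p = 0.0213) and that from mural-like cells did not (5.003 ± 2.28 SE, adjusted p = 0.128, edgeR). The first call was lost when the 7 genes and the pathway list were also used for clustering (5.27, adjusted p = 0.0655, where 15.7% of genes passed). The second was gained with DESeq2 (adjusted p = 0.0261), which called 25.9% of genes there. It was gained as well in edgeR fits without a filter on low counts (0.0227, where 8.74% passed), without mouse 1 (18.6% passed) and without mouse 6 (18.8% passed). All 89 astroglia-like cells with Atp1b1 also held Atp1b2.

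All 7 genes were higher in astroglia-like than in endothelial-like cells, where 26.1% of genes passed and 20.2% passed as higher (edgeR). Their fitted log2 differences ran from 9.64 for Atp1b2 (adjusted p = 3.79e-07) to 17.13 for Mlc1 (adjusted p = 7.68e-07). Endothelial-like cells held 0 to 5 counts of 5 of the genes, and a fitted difference for such a gene depends on the prior count of the fit and is no bound. The same holds for differences from mural-like cells of Aqp4, Slc4a4 and Hepacam, with 2, 2 and 3 counts there. It holds as well for Kcnj10, with 11 counts in 1 mural-like cell. In 68 of 87 endothelial-like cells none of the 7 genes was found.

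**Figure D3:**
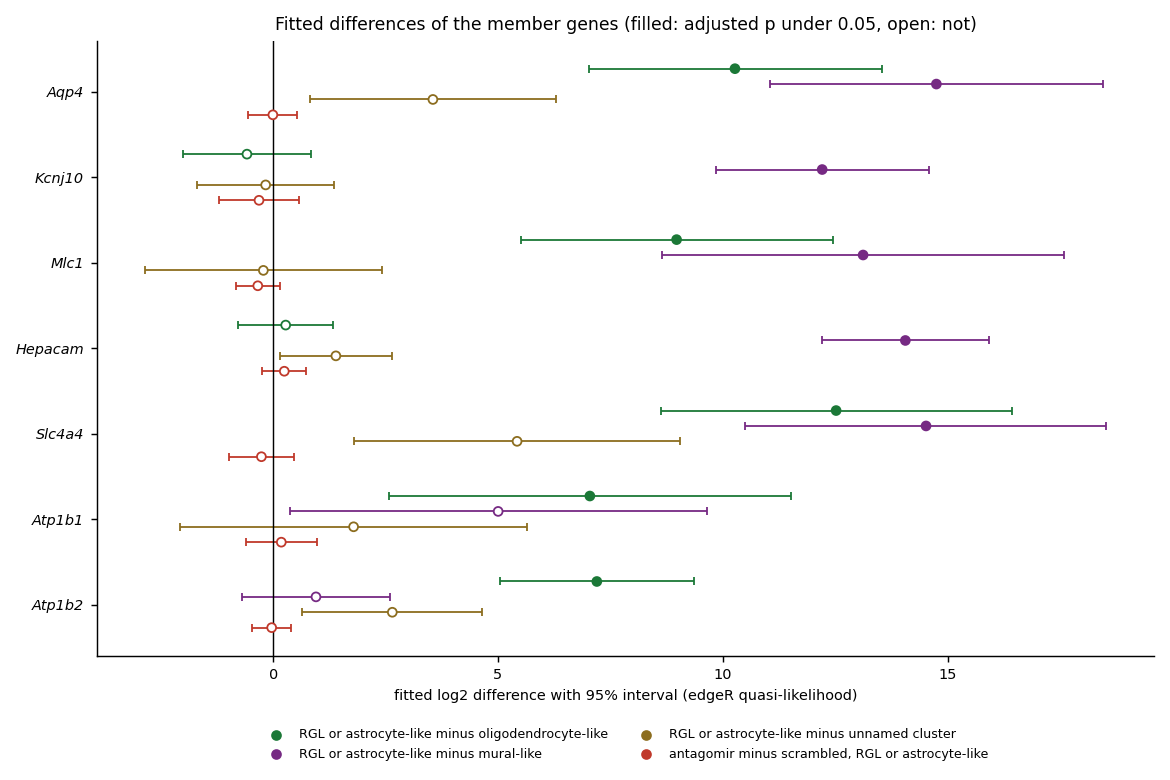
Fitted log2 difference with its 95% interval (edgeR quasi-likelihood) for each gene in 3 comparisons of classes and 1 of treatments; filled points passed at an adjusted p under 0.05 and open points did not. Kcnj10 (-0.58) and Hepacam (0.28) against oligodendrocyte-like cells and Atp1b2 (0.95) against mural-like cells have intervals that include 0, which does not show equal levels. The antagomir differences of all 7 genes lie between -0.34 and 0.25.

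Against the unnamed cluster, 0 of the 7 genes passed with edgeR (189 of 12993 genes, 1.45%, did, and 1515 had an unadjusted p under 0.05). The fitted log2 differences, astroglia-like minus unnamed, were 5.42 ± 1.79 SE for Slc4a4 (adjusted p = 0.122), 3.55 ± 1.35 for Aqp4 (0.212), 2.65 ± 0.99 for Atp1b2 (0.199), 1.79 ± 1.90 for Atp1b1 (0.864) and 1.39 ± 0.61 for Hepacam (0.327). Kcnj10 (-0.17 ± 0.74) and Mlc1 (-0.22 ± 1.30) had the opposite sign. Slc4a4, Aqp4, Atp1b1 and Atp1b2 had a higher CPM in astroglia-like cells in 6 of 6 mice, Kcnj10 in 3 of 6 and Mlc1 in 2 of 6. DESeq2, which called 3255 genes here (12.7%), called Hepacam (1.31, adjusted p = 0.0116) and Atp1b2 (2.66, adjusted p = 0.0203). The edgeR fit without a filter on low counts, where 0.913% of genes passed, called Slc4a4 (5.38, adjusted p = 0.0150) and Atp1b2 (2.69, adjusted p = 0.00296). Nes, the gene behind the reporter, was found in all 39 cells of the unnamed cluster and in 66 of 168 astroglia-like cells. The markers of RGL or astrocytes summed to between 2870 and 3.70e+04 CPM in antagomir and between 1.49e+04 and 3.87e+04 CPM in scrambled mice of the unnamed cluster, below their sum in astroglia-like cells. Their part in these differences was not tested.

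Levels of different genes were compared per length, as CPM per kb of merged exons. In astroglia-like cells the order was Atp1b2 (993 ± 117 CPM per kb), Mlc1 (514 ± 97.8), Hepacam (294 ± 49.8), Aqp4 (157 ± 32.3), Atp1b1 (75.5 ± 25.7), Slc4a4 (67.9 ± 23.6) and Kcnj10 (60.7 ± 23.7; SD, n = 8). The first 4 steps were wider than the SDs of their neighbours, and the last 3 genes lay within 1 SD of each other. In oligodendrocyte-like cells Hepacam had 219 ± 41.5 and Kcnj10 76.0 ± 15.3 CPM per kb. A cell's Kcnj10 level per length was thus low in both classes beside that of Hepacam.

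Of the sodium pump's beta subunit genes, Atp1b3, which is widespread, had 58.5 ± 30.6 CPM per kb in astroglia-like and 697 ± 73.9 CPM per kb in oligodendrocyte-like cells (SD, n = 8 mice each). Its difference between these classes passed (fitted log2 -3.70, adjusted p = 0.00283, edgeR), in the opposite direction to those of Atp1b1 and Atp1b2.

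Of the 168 astroglia-like cells, 51 held counts of all 7 genes, 50 of 6 and 39 of 5, and 2 held none. In oligodendrocyte-like cells 212 of 303 held exactly 2 of the 7. One of them held 6, with 386 of the class's 626 Atp1b1 counts. No doublet caller was run, so wells with 2 cells cannot be told apart from cells that make both sets. In mural-like cells 62 of 82 held 1 of the 7 genes, and Atp1b2 was in all 82.

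Astroglia-like cells came from 3 clusters that differed in detected genes and in depth, with medians of 3042, 2466 and 881 detected genes over 87, 45 and 36 cells. Atp1b2 averaged 4319 ± 734 CPM in the first (n = 8 mice), 3998 ± 1084 CPM in the second and 2565 ± 923 CPM in the third (n = 5 mice with at least 3 cells each). Atp1b1 was found in 66.7%, 51.1% and 22.2% of their cells, and averaged 251 ± 88.6, 141 ± 97.1 and 440 ± 740 CPM. Kcnj10 was found in 71.3%, 53.3% and 50% of them and averaged 291 ± 91.2, 319 ± 159 and 559 ± 429 CPM. For both genes the third cluster thus had the lowest share of cells with counts and the highest mean CPM, with an SD wider than the differences in mean. Aqp4 averaged 1093 ± 359, 744 ± 249 and 1076 ± 752 CPM. Wells of project L6 gave 48.3%, 73.3% and 72.2% of their cells, and the third cluster's median depth was 3.24e+05 counts per cell, beside 6.75e+05 in the first. Antagomir mice gave 52.9%, 68.9% and 44.4% of their cells, so the clusters enter the astroglia-like sums of the treatments in unequal shares. The part of this mix in the treatment differences was not tested. These clusters were formed from the same cells, so their differences are a description, and the part of depth, detected genes and project in them was not tested.

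Nes split the astroglia-like cells into 66 with and 102 without its counts. The first held a median of 2813.5 and the second 2553.5 detected genes. Aqp4 averaged 1030 ± 313 CPM in cells with Nes and 929 ± 335 CPM in cells without, Kcnj10 320 ± 150 and 335 ± 146 CPM, and Atp1b2 4009 ± 511 and 4113 ± 638 CPM (SD over 8 mice). None of the 7 genes passed with edgeR, where 0 of 12574 genes (0%) did and 325 had an unadjusted p under 0.05. DESeq2 called 572 genes (4.62%) and none of the 7. The fitted log2 differences, with minus without Nes, ran from -0.17 ± 0.38 SE for Kcnj10 to 0.19 ± 0.23 SE for Aqp4. The median was 0.063 over the 7 genes and -0.28 over all genes, and each of the 7 lay above the median over all genes. The narrowest interval was that of Atp1b2, -0.21 to 0.16. In cells with at least 1000 detected genes, edgeR called 26 genes (0.188%) and Atp1b2 was among them, lower in cells with Nes (-0.56, adjusted p = 0.0285). These wells were clustered anew, and their astroglia-like class took in the cluster of 39 cells led by Frzb and Tfap2c. In the unnamed cluster of the main setting, led by Frzb and Tfap2c too, all 39 cells held Nes and Atp1b2 averaged 1078 CPM. The part of this change of class in the call was not tested.

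Of the 57 further pathway genes, 48 were tested between astroglia-like and oligodendrocyte-like cells. With edgeR 16 were higher, 10 lower and 22 did not pass, where 9.71% of all genes passed as higher and 7.23% as lower; the list's median log2 difference was 1.42, beside -0.20 over all genes. Among end-foot anchoring genes 5 of 10 were higher and 0 lower. They included the dystrophin gene Dmd (409 ± 111 CPM in astroglia-like and 5.93 ± 4.28 CPM in oligodendrocyte-like cells, log2 5.93, adjusted p = 0.000359), its relative Utrn (5.21, 0.000811), the syntrophin gene Sntb1 (8.98, 0.00224) and the dystroglycan gene Dag1 (3.01, 0.00360). In mural-like cells Dmd averaged 1272 ± 221 CPM, a difference that is given without a test.

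Of 12 potassium channel and transporter genes tested, 6 were higher and 2 lower in astroglia-like cells. Kcnj16, whose product Kir5.1 pairs with Kir4.1, averaged 125 ± 58.2 CPM in astroglia-like and 0.117 ± 0.331 CPM in oligodendrocyte-like cells (log2 12.15, adjusted p = 0.000301, edgeR). Both Kcnj10 and Kcnj16 were found in 45 of 168 astroglia-like cells and in 1 of 303 oligodendrocyte-like cells, although 268 of these held Kcnj10. The potassium leak channel gene Kcnk1 averaged 541 ± 121 CPM in astroglia-like and 0.503 ± 1.39 CPM in oligodendrocyte-like cells (log2 13.47, adjusted p = 8.64e-06). The calcium-gated channel genes Kcnma1 (10.57, 0.000249) and Kcnn3 (8.97, 0.000791) were higher as well.

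Of 10 bicarbonate and acid handling genes, 1 was higher and 3 lower. The carbonic anhydrase genes Car14 (1.30 ± 1.74 CPM in astroglia-like, 401 ± 86.0 CPM in oligodendrocyte-like cells; log2 -9.65, adjusted p = 2.79e-06) and Car2 (710 ± 132 and 5462 ± 687 CPM; -3.14, 0.0291) were lower, and so was the bicarbonate transporter gene Slc4a10 (-9.56, 0.000273). Slc9a3r1, which encodes a scaffold of membrane transporters, was higher (4.54, 0.00381). Of 10 volume, chloride and water channel genes, 2 were higher and 3 lower. The aquaglyceroporin gene Aqp9 (11.21, 0.00452) and Ttyh1 (1333 ± 183 and 101 ± 36.6 CPM; 3.51, 0.0214) were higher, and the volume-regulated anion channel genes Lrrc8d (-8.80, 0.00447) and Lrrc8b (-7.56, 0.00510) lower. Oligodendrocyte-like cells held 0 counts of Aqp9 and Sntb1, so these 2 fitted differences are no bounds. Slc4a10 and Kcnma1 averaged 3.04 and 6.63 CPM over all sums per mouse and class, and their fitted differences rest on these low levels. Fxyd1, which encodes a regulator of the sodium pump, was higher (9.39, 8.70e-05). All adjusted p-values are from edgeR.

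Likeness of pattern was measured as Pearson's r of log2(CPM + 1) over the 38 sums per mouse and class, among 12992 other genes. The sums share mice, cells and library depth, and the values are a description. The genes most like Kcnj10 were Hepacam (r = 0.985), Cmtm5 (0.984) and Kif21a (0.983). Hepacam was most like Cmtm5 (0.995), Fam171b (0.994) and 4933431E20Rik (0.993). Aqp4 was most like Gm13111 (0.975), Gm6145 (0.974) and Agt (0.972), and Mlc1 like Gm6145 (0.946), Nwd1 (0.940) and Gpm6a (0.940). Slc4a4 was most like Aifm3 (0.966), Adcy2 (0.938) and Fam163a (0.937), and Atp1b1 like Spire1 (0.892), Trim9 (0.887) and AW047730 (0.867). Genes like Atp1b2 included Slc9a3r1 (0.943) and Prelp (0.929). Among the 7 genes themselves the lowest r was that of Atp1b2 with Kcnj10 (0.210), and Aqp4 with Mlc1 had 0.913.

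After the antagomir, none of the 7 genes passed the test between treatments. In astroglia-like cells edgeR called 0 of 10081 genes (0%), in oligodendrocyte-like cells 0 of 10781 and in all kept cells 0 of 15447. An unadjusted p under 0.05 was reached by 157, 209 and 280 genes, and by 0 of the 7. limma called 0 genes in each. DESeq2 called 124 (1.04%), 97 (0.798%) and 132 genes (0.74%), with none of the 7 among them.

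In astroglia-like cells Hepacam, whose 3' UTR holds the seed match shown above, had 1151, 881, 1308 and 965 CPM in antagomir mice 2, 4, 6 and 8, against 919, 922, 944 and 782 CPM in scrambled mice 1, 3, 5 and 7. The groups overlapped, through mouse 4 alone. The means were 1076 ± 191 CPM in antagomir and 892 ± 73.9 CPM in scrambled mice (SD, n = 4 each), with a fitted log2 difference of 0.25 (95% interval -0.24 to 0.73, adjusted p = 1, edgeR). In oligodendrocyte-like cells it had 792, 558, 788 and 597 CPM in antagomir mice, against 979, 668, 821 and 648 CPM in scrambled mice. The groups overlapped and the sign was the other way: 684 ± 124 CPM in antagomir and 779 ± 154 CPM in scrambled mice, log2 -0.22 (-0.70 to 0.27, adjusted p = 1). The test of the difference between the 2 classes' responses gave 0.42 (-0.29 to 1.12, adjusted p = 1), where edgeR called 0 of 15575 genes (0%) and 292 had an unadjusted p under 0.05.

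Kcnj10 had 242, 146, 415 and 380 CPM in astroglia-like cells of antagomir mice 2, 4, 6 and 8, against 327, 206, 547 and 362 CPM in scrambled mice 1, 3, 5 and 7. In oligodendrocyte-like cells it had 343, 308, 363 and 452 CPM in antagomir mice, against 458, 530, 340 and 495 CPM in scrambled mice. The groups overlapped in both classes. The fitted log2 difference was -0.32 (-1.20 to 0.57) in astroglia-like and -0.33 (-0.75 to 0.09) in oligodendrocyte-like cells, with an adjusted p of 1 in each (edgeR).

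Mlc1 had 1382, 992, 1650 and 1099 CPM in astroglia-like cells of antagomir mice, against 1500, 1807, 1533 and 1556 CPM in scrambled mice. Antagomir mice lay below all scrambled mice but for mouse 6. The means were 1281 ± 296 CPM in antagomir and 1599 ± 141 CPM in scrambled mice (log2 -0.34, -0.83 to 0.15, adjusted p = 1). Aqp4 had 759, 916, 957 and 1295 CPM in antagomir mice, against 1092, 1198, 862 and 742 CPM in scrambled mice. The water channel's groups spanned nearly the same range (log2 -0.01, -0.55 to 0.54, edgeR).

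Slc4a4 had 1016, 526, 451 and 691 CPM in antagomir mice, against 620, 1078, 501 and 989 CPM in scrambled mice (log2 -0.26, -0.99 to 0.46). Atp1b1 had 172, 244, 172 and 409 CPM in antagomir mice, against 241, 180, 254 and 187 CPM in scrambled mice (0.18, -0.61 to 0.97). Atp1b2 had 4766, 3245, 4242 and 3924 CPM in antagomir mice, against 4363, 3651, 4371 and 3874 CPM in scrambled mice (-0.03, -0.47 to 0.40). Each of these groups overlapped, and all 3 adjusted p-values were 1 (edgeR). In oligodendrocyte-like cells Atp1b2 averaged 29.7 ± 11.8 CPM in antagomir and 18.3 ± 19.97 CPM in scrambled mice (0.70, -0.94 to 2.33), while Aqp4, Slc4a4 and Atp1b1 were below the filter on low counts.

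**Figure D4:**
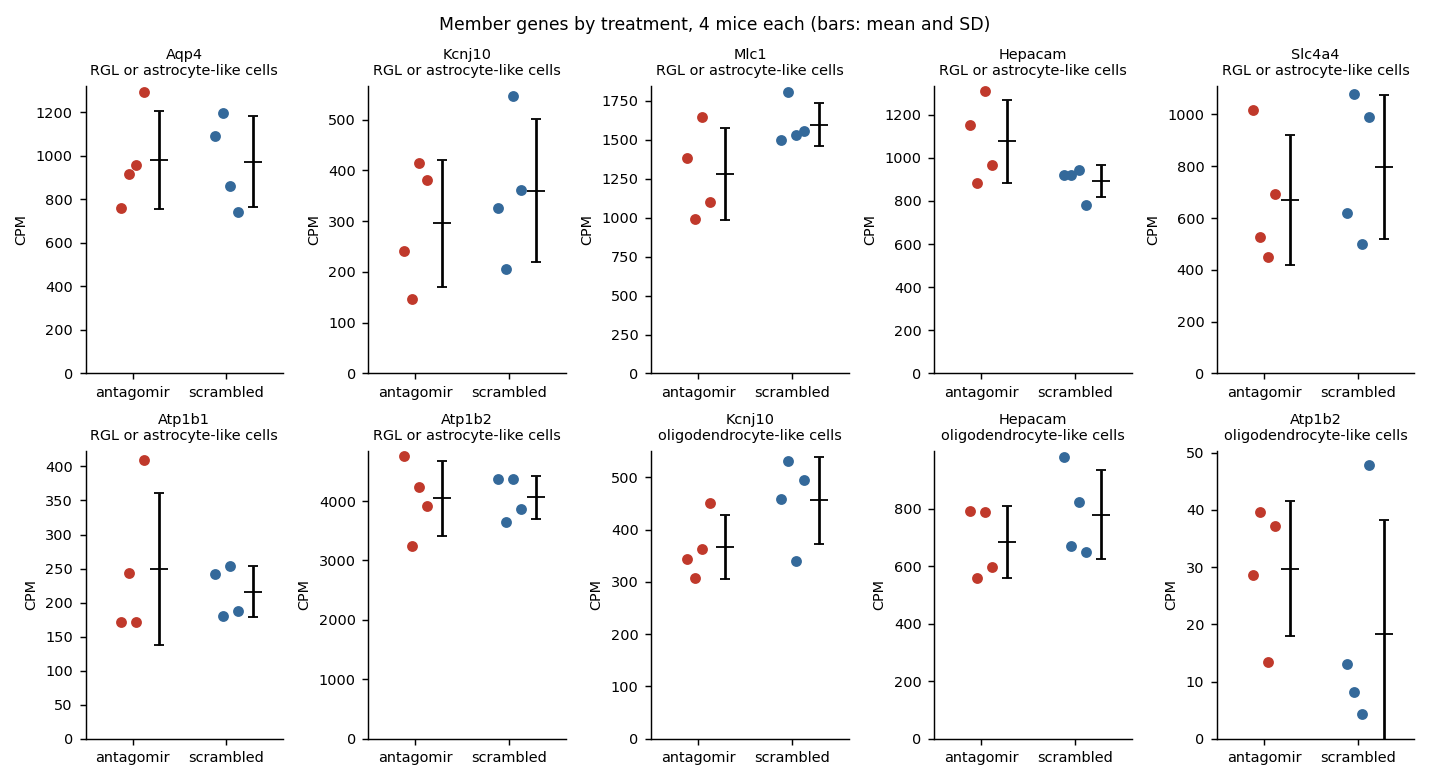
CPM of each gene in astroglia-like cells, and of Kcnj10, Hepacam and Atp1b2 in oligodendrocyte-like cells, in 4 antagomir and 4 scrambled mice. Points are mice, and the black lines give the mean and SD beside each group (the SD line of Atp1b2 in oligodendrocyte-like cells of scrambled mice is cut at 0); the groups overlap in each panel.

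Over all kept cells, Aqp4 averaged 226 ± 102 CPM in antagomir and 165 ± 14.5 CPM in scrambled mice (log2 0.41, -0.29 to 1.12), and Atp1b2 1224 ± 388 and 1067 ± 185 CPM (0.16, -0.42 to 0.73). Kcnj10 averaged 268 ± 108 CPM in antagomir and 340 ± 68.4 CPM in scrambled mice (-0.36, -1.03 to 0.32). Astroglia-like cells made up 26.3 ± 11.8% of the kept cells of antagomir and 20.8 ± 6.87% of those of scrambled mice, and such sums cannot tell a change in the number of these cells from a change in RNA per cell. Hepacam, found in both large glial classes, averaged 584 ± 20.6 CPM in antagomir and 583 ± 52.8 CPM in scrambled mice (-0.03, -0.41 to 0.35).

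The well table gives a sort day and a project (L5 or L6) for every well, and the table does not say what the wells of a project shared. Each of the 2 sort days and each of the 2 projects held 2 mice of either treatment, so the difference was also fitted within each of these 4 batches. In astroglia-like cells Hepacam was higher in antagomir mice within every batch (fitted log2 0.09 to 0.37), and Kcnj10 (-0.48 to -0.14) and Mlc1 (-0.72 to -0.03) were lower within every batch. In oligodendrocyte-like cells Kcnj10 (-0.63 to -0.05) and Hepacam (-0.32 to -0.11) were lower within every batch. Over all kept cells Kcnj10 was lower within every batch too (-0.71 to -0.12), and the other genes differed in sign between batches. A day and a project share mice, so these 4 values are not independent of each other or of the pooled value. The share of all genes with the same sign in all 4 batches was not counted. The smallest adjusted p within a batch was 0.9996 (edgeR). Aqp4 (-0.48 to 0.45), Slc4a4 (-0.79 to 0.36), Atp1b1 (-0.56 to 0.80) and Atp1b2 (-0.10 to 0.02) in astroglia-like cells differed in sign between batches.

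One antagomir and 1 scrambled mouse shared each combination of day and project, which gave 4 pairs. In oligodendrocyte-like cells Hepacam was lower in the antagomir mouse in 4 of 4 pairs (fitted log2 -0.21 with the pair as a block, adjusted p = 1, edgeR), and Kcnj10 in 3 of 4 (-0.33, adjusted p = 1). Atp1b2 was higher in the antagomir mouse in 3 of 4 (1.17, adjusted p = 1). In astroglia-like cells Hepacam was higher in the antagomir mouse in 3 of 4 pairs (0.24), and Kcnj10 (-0.34), Mlc1 (-0.37) and Slc4a4 (-0.27) were lower in 3 of 4. Aqp4, Atp1b1 and Atp1b2 split 2 to 2, and the adjusted p of all 7 genes with the block was 1. Over all kept cells Kcnj10 was lower in the antagomir mouse in 4 of 4 pairs (-0.43 with the block). The other genes there split 3 to 1 or 2 to 2. With 4 pairs the smallest p of a two-sided exact sign test is 0.125, so no count of pairs can pass.

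None of the 57 pathway genes passed between treatments, of 36 tested in astroglia-like cells, 31 in oligodendrocyte-like cells and 52 in all kept cells (edgeR). Those with the smallest p were Dtnb, a dystrobrevin gene (log2 2.25, -0.29 to 4.78), and Car2 (-0.41, -0.92 to 0.10) in astroglia-like cells. In oligodendrocyte-like cells they included Agrn, which encodes agrin of the vascular basement membrane (0.55, -0.45 to 1.54). In all kept cells they were the sodium potassium chloride cotransporter gene Slc12a2 (-0.52, -1.08 to 0.04) and Dtnb (0.58, -0.29 to 1.45).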

How the data were processed

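The deposited files, made by the authors, hold raw read counts for each symbol in each well, and a second table names every well's mouse, treatment, day of sorting and project. Per the labels' protocols, Nextera XT libraries were made from 100 pg of cDNA of each cell. Tools named in the submitters' processing notes are STAR 2.5.2, featureCounts 1.5.1, Seurat 2.3.1 and FastQC, with build mm10. The strand setting is not stated, so a gene and its antisense partner cannot be told apart. The 2 labelled samples per treatment could not be tied to mice, and the mouse was the replicate. A count is a read, not a molecule, and Wilson intervals (95%) and floors (3 counts) cover counting error only.

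Clusters were formed in scanpy 1.11.5 from 2000 variable genes (20 components, 15 neighbours, resolution 1), without the 7 genes and the pathway list. No doublet caller was run. Sums per mouse (treatment), or per mouse and class with at least 3 cells (mouse as a block, classes in at least 6 mice), were tested with edgeR 4.0.16 in R 4.3.3 (filterByExpr, TMM, quasi-likelihood, Benjamini-Hochberg over all genes tested). DESeq2 1.42.0, limma 3.58.1, other scalings, filters, clusterings and depths, and leaving out each mouse were alternatives. The planned comparison with neuroblast-like cells was not run, since 5 mice had at least 3 of them. The code was tested on simulated data.

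The 7 genes and the lists were chosen with earlier results of these data known. Named genes are all 7, the pathway genes with the smallest p (up to 4 per role between astroglia-like and oligodendrocyte-like cells, up to 2 per treatment comparison) and the 3 genes most like each of the 7. Some genes under this rule are not reported here. The well table pairs mice of the same day and project; deviations of these pairs from the group means correlated at 0.0267 to 0.375 over 12 values.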

Additional observations from a re-analysis of the deposited data

Results flagged for a closer look

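Of 48 sets of mice with a mean of at least 20 CPM of a gene that were examined, 6 held a mouse far from the others. In 5 of the 6 the mean of the other mice was under 20 CPM, so these sets were examined only through that mouse, and the count of 6 is not set against the 1 in 20 that chance gives. Hepacam in astroglia-like cells of scrambled mice was 782.2 CPM in mouse 7, below the other 3 at 919 to 944 CPM. Mlc1 in mural-like cells was 262.9 CPM in mouse 8, where 1 cell held 599 of 601 counts, against 0 to 0.143 CPM in the other mice. Atp1b2 in endothelial-like cells was 130.9 CPM in mouse 5, against 0 to 26.3 CPM in the others. In neuroblast-like cells, with 3 to 5 cells per mouse in the 5 mice used, Hepacam was 209.4 CPM and Atp1b1 92.3 CPM in mouse 5, where the other mice lay at 0 and at 0 to 12.9 CPM, and Slc4a4 was 179.8 CPM in mouse 8, against 0 to 10.2 CPM.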

How the results depend on the processing

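Of the fitted values of the 7 genes under settings other than leaving out a mouse, 493 kept their direction and side of the threshold, 29 changed direction, 7 gained a call and 1 lost it; the causes were not tested. DESeq2 called 132 genes between treatments in all kept cells, 124 in astroglia-like and 97 in oligodendrocyte-like cells, where edgeR and limma called 0. Between astroglia-like cells and other classes DESeq2 called 4959 genes (oligodendrocyte-like), 6643 (mural-like), 7684 (endothelial-like) and 3255 (unnamed cluster); without a mouse block the last count was 481 with edgeR, and when each mouse was left out in turn it ran from 67 (without mouse 1) to 159 (without mouse 8), beside 189 with all mice. For Nes, 572 genes passed with DESeq2, 7 without a filter on low counts, 26 in wells with at least 1000 detected genes, 1 of them Atp1b2, 1 without the replicate block, 6 after thinning and 0 to 2 when a mouse was left out. Clustering on markers alone gave 1 gene in the test of the difference between classes' responses.

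With the replicate block of sort day and project, 0 genes passed in each treatment comparison, and the block changed no other call between treatments; Mlc1 in oligodendrocyte-like cells was -0.20 with it. With limma Mlc1 and Hepacam in all kept cells were 0.14 and 0.028, Mlc1 in oligodendrocyte-like cells -0.057, and Slc4a4, Atp1b1 and Atp1b2 in astroglia-like cells 0.069, -0.46 and 0.020. In wells with at least 1000 genes Aqp4 in astroglia-like cells was 0.097 and Atp1b2 in oligodendrocyte-like cells -0.010. These wells were clustered anew, and their astroglia-like class took in a cluster of 39 cells led by Frzb and Tfap2c. The values for Nes from these wells, given below, rest on that class as well. With clustering on markers alone Aqp4, Kcnj10 and Atp1b2 in astroglia-like cells were 0.16, 0.057 and 0.092, and the test of the difference between responses gave 0.58 for Kcnj10 and -1.79 for Mlc1. Against the unnamed cluster Kcnj10 was 0.14 and Mlc1 0.058 after thinning, and Mlc1 0.11 without the mouse block. For Nes, wells with at least 1000 genes gave -0.46 for Aqp4, 0.20 for Kcnj10, -0.30 for Hepacam, -0.76 for Slc4a4 and -0.35 for Atp1b1; thinning gave -0.065 for Mlc1, -0.17 for Slc4a4 and -0.13 for Atp1b1; Slc4a4 was -0.013 without a filter and -0.11 without the block, and Atp1b2 0.0096 with DESeq2 and 0.0087 with relative log scaling.

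Leaving out each mouse in turn gave, between treatments in astroglia-like cells, -0.18 to 0.089 for Aqp4, -0.18 to 0.32 for Atp1b1 and -0.14 to 0.075 for Atp1b2; in all kept cells -0.034 to 0.28 for Atp1b2, -0.092 to 0.033 for Hepacam and -0.15 to 0.46 for Slc4a4; and in oligodendrocyte-like cells -0.59 to 1.02 for Mlc1. Without a change of sign, 1 mouse moved Kcnj10 (-0.53 to -0.033) and Slc4a4 (-0.54 to -0.11) in astroglia-like cells, Aqp4 (0.13 to 0.64), Kcnj10 (-0.71 to -0.19), Mlc1 (-0.44 to -0.013) and Atp1b1 (0.054 to 0.57) in all kept cells, and Atp1b2 (0.37 to 1.76) and Hepacam (-0.30 to -0.050) in oligodendrocyte-like cells. The difference between responses ran from -0.31 to 0.38 for Kcnj10, -1.17 to 2.87 for Mlc1 and -2.50 to 0.70 for Slc4a4. Against the unnamed cluster Kcnj10 ran from -0.35 to 0.14 and Mlc1 from -0.48 to 0.44, and against mural-like cells Atp1b1 from 3.30 to 8.83. For Nes the ranges were -0.26 to 0.34 for Atp1b1, -0.12 to 0.018 for Atp1b2, -0.043 to 0.22 for Hepacam, -0.070 to 0.14 for Mlc1 and -0.14 to 0.23 for Slc4a4. Depth limits statements on cells without counts of a gene.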
